A study of Bos taurus with 15 samples.

Results

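The mammary transcriptome of dairy cows was compared between 24 and 72 h after a single injection of dexamethasone (DEX), the later part of a time course that began before treatment. The comparison used 6 of the 15 libraries of the series, namely the 72 h and the 24 h libraries of cows 2, 3 and 4, with 3 libraries of the same cows at each time point. The model held the cows as a correlated block, but the correlation it estimated was only 0.0179, so the main test made little use of the pairing. With cow as a fixed term, which compares each animal with itself, 653 genes changed in place of the 482 described here. The levels of the same cows at 0 h and 12 h did not enter the difference that chose genes and served to place each change on the time course, although these libraries shared in the estimate of the spread and in mean abundance. The 3 libraries of cow 1, which has none at 72 h, were kept out of the main fit and entered only the alternative fit of all 15 libraries.

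The animals were non-pregnant Holstein cows in their second lactation, 40 to 64 d in milk, which received 40 mg of DEX in the muscle immediately after the 0 h biopsy. All of them also received ampicillin over the biopsy days, and no cow was left without DEX, so the 0 h libraries are the only untreated reference. A sample was 1 or 2 needle cores of mammary tissue, with RNA integrity values above 8.3. The glands of the udder (QTR) were sampled in a fixed order in all cows. The 24 h cores came from QTR3 and the 72 h cores from QTR4, while 0 h came from QTR1 and 12 h from QTR2. Time after DEX and gland therefore change together and cannot be told apart in any comparison that follows. DEX was given in the evening, so by their timing the 12 h cores fell in the morning and those at 0, 24 and 72 h in the evening. Time of day therefore also differs in every comparison with 12 h. Cow 1 was taken as the animal that fell ill and left the study, because it alone has no 72 h library.

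Glucocorticoids such as DEX bind the glucocorticoid receptor, a transcription factor that enters the nucleus with its ligand, raises the transcription of some genes and lowers that of others. In the lactating gland cortisol, the natural glucocorticoid, acts together with prolactin and insulin to maintain the secretory epithelium and its milk protein genes. A single large dose given to a cow in established lactation nevertheless lowers milk yield for a short time. The comparison of 72 h with 24 h addresses which genes moved in the later part of the time course, and the 0 h libraries show where those genes stood before DEX.

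Libraries were made with the QuantSeq method, which counts transcripts from reads at their 3′ end, so that values of different genes can be compared without correction for transcript length. The deposited values are normalized counts, that is, reads corrected for library size and then for a factor that differs between libraries. The 24 h libraries held 6228132, 4479772 and 4029166 reads on genes in cows 2, 3 and 4, and the 72 h libraries held 2360591, 5685741 and 3740033. A count of 0 at these depths allows up to 3 reads, which is 0.550, 0.640 and 0.809 normalized counts in the 24 h libraries and 1.22, 0.464 and 0.627 in the 72 h libraries. These limits hold for counting error alone, because no molecular identifiers are described for these libraries and reads may be copies of one molecule. The file lists 24616 Ensembl identifiers without gene names, and 0 of them could be matched to a symbol here. Genes are therefore described by their levels and time courses, and only a few are given by identifier. In bulk tissue, fewer cells of a type and less RNA per cell cannot be told apart, and markers of the cell types in a core were not analysed here.

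By its whole profile, the 72 h library of each cow lay closer to the 0 h library of that cow than to its 12 h or 24 h library. Over the 2922 genes averaging at least 10 normalized counts, Pearson's r between the log2 values at 72 h and 0 h was 0.9705 in cow 2 and 0.9723 in cow 3. In these animals r was 0.911 and 0.9105 between 72 h and 24 h, and 0.9062 and 0.8887 between 72 h and 12 h. The 24 h libraries were in turn closest to the 12 h libraries, with r of 0.9414, 0.9432 and 0.9465 in cows 2, 3 and 4. Cow 4 differed at 72 h. Its 72 h library reached only 0.9282 with its own 0 h library, 0.8881 with its 24 h library and 0.8844 with its 12 h library. Between animals at 72 h, r was 0.9538 for cows 2 and 3, 0.9295 for cows 2 and 4 and 0.933 for cows 3 and 4, whereas at 24 h all 3 pairs lay between 0.9478 and 0.9603. These coefficients are across genes, which are not independent replicates, and describe the libraries without a test. Because the 72 h library of cow 4 stands apart, the number of changed genes, their position at 0 h and the single genes were also tested without it. The counts by range of abundance, the 12 h positions, the overlap of libraries and the sums were not repeated in that way.

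**Figure D1:**
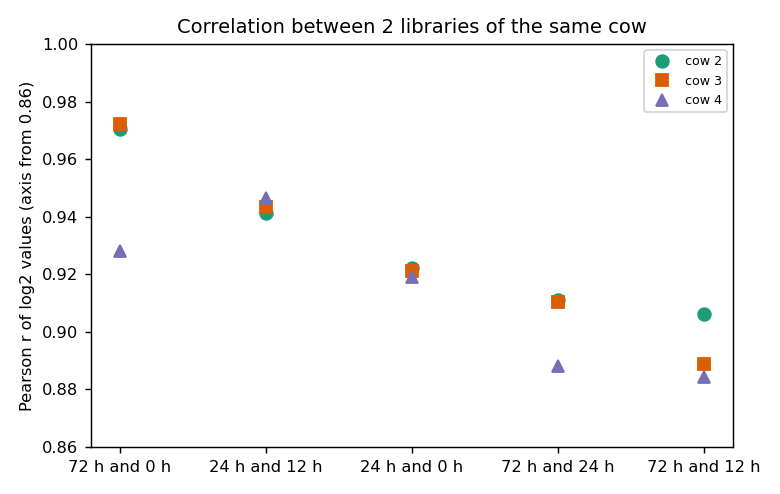
Pearson's r across 2922 genes between the log2(normalized count + 0.5) values of pairs of libraries from the same cow, with 1 point per cow for each pair of time points and a vertical axis that starts at 0.86. The highest points are 72 h with 0 h in cows 2 and 3 (0.9705 and 0.9723), and cow 4 lies at 0.9282 for that pair.

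From 24 to 72 h, 482 of the 13525 genes tested (3.56%) changed at an adjusted p under 0.05 in limma. Of these, 159 genes (1.18% of those tested) rose and 323 genes (2.39%) fell, so 33.0% of the changes were rises. The genes that rose went up by a median of 1.17 on the log2 scale, with a range of 0.51 to 2.97, and 104 of them rose by over 2-fold, 11 by over 4-fold and 0 by over 16-fold. The genes that fell had a median change of -1.22, with a range of -0.52 to -6.23, and 194 of them fell by over 2-fold, 47 by over 4-fold and 2 by over 16-fold. Over all genes tested the median size of the change was 0.29. The direction was shared by cows 2, 3 and 4 in 158 of the 159 rises and in all 323 falls. The 24 h and 72 h libraries did not overlap for 156 of the rises and 322 of the falls, and for 16.5% of all genes tested, but the same libraries had chosen the genes.

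The test favours genes on which the 3 cows agree, so their medians are a description. In cows 2, 3 and 4 the 159 rises had median log2 ratios of 1.07, 1.15 and 1.22, and the 323 falls had medians of -1.23, -0.99 and -1.21. Without the 72 h library of cow 4, 126 genes rose and 234 fell, and 313 of the 482 genes were called again. The balance of rises and falls depended on the scaling of the libraries. Quantile normalization gave 189 rises and 247 falls (43.3% rises), and dividing by library totals without the 20 most abundant genes gave 302 rises and 213 falls (58.6% rises), with a shift of the median gene by 0.125. Under these scalings 381 and 372 of the 482 genes were called again. None changed sign with quantile normalization. The other scaling moves all genes nearly alike, by less than the smallest change called (0.51), so no sign could turn under it. Leaving out an animal reduced the number of calls to 103 without cow 2, 176 without cow 3 and 135 without cow 4.

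The share of genes called differed with abundance. Among 6007 genes with a mean of at most 1 normalized count over the 12 libraries, 26 were called (0.433%), and among 4596 genes between 1 and 10, 95 were called (2.07%). In the range from 10 to 100, 94 of 2572 genes rose and 151 fell, together 9.53%. In the range from 100 to 1000, 13 of 313 genes rose and 99 fell, together 35.8%. Of the 37 genes above 1000, 1 rose and 3 fell. Fewer changes can be detected among genes with few reads, so these shares do not compare how often genes of each range changed.

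**Figure D2:**
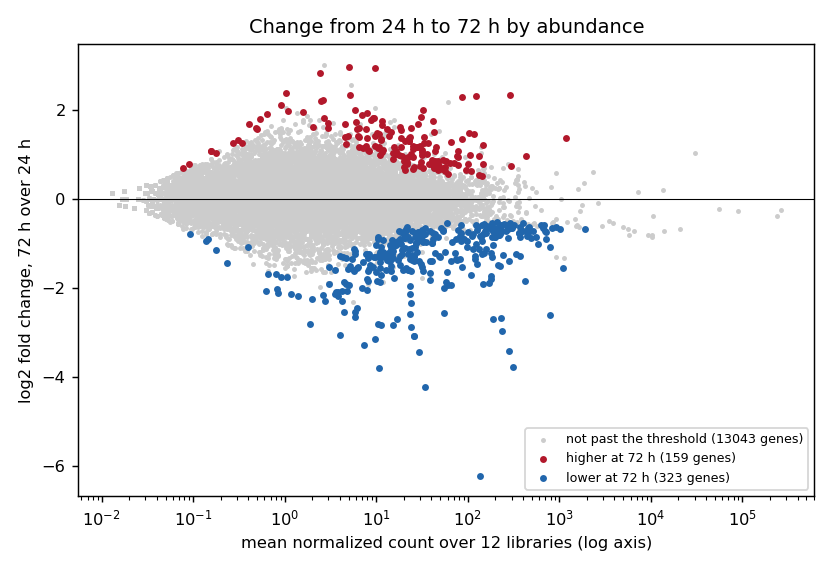
Log2 fold change from 24 to 72 h (vertical axis) against the mean normalized count over 12 libraries (horizontal log axis), with 1 point per gene tested. The 159 genes that rose are red and the 323 that fell are blue, and falls reach -6.23 while rises reach 2.97.

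The most abundant genes, which carry most of the RNA of a lactating gland, showed no change past the threshold in the main fit. The 20 most abundant genes took 80.4%, 79.4% and 81.3% of the reads of cows 2, 3 and 4 at 24 h and 81.4%, 78.1% and 77.6% at 72 h. In the main limma fit, 0 of these 20 were called, the lowest adjusted p being 0.132, while 11 of them had an unadjusted p under 0.05. How many of the 20 were called under other settings is not given here. Their levels at 72 h were below those at 24 h for 17 of the 20, with a median log2 difference of -0.58 and a range of -0.86 to 1.03. That median was -0.39 with totals taken without these genes and -0.07 with quantile normalization, under which 13 of the 20 were lower. Among the 100 most abundant genes 2 rose and 29 fell. With quantile normalization this balance turned to 11 rises and 6 falls, while totals without the 20 top genes gave 4 and 21. Without the 72 h library of cow 4 there were 3 rises and 18 falls. Leaving out cow 2, 3 or 4 gave 0, 0 and 2 rises and 5, 15 and 5 falls. edgeR gave 5 rises and 55 falls and DESeq2 gave 5 and 57, both with cow as a fixed term. In limma, cow as a fixed term gave 3 rises and 43 falls. Testing only genes averaging at least 10 gave 4 and 52, and limma-voom gave 4 and 53.

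The most abundant gene that changed ranked 23rd, and it fell. Its level at 24 h was 2735, 2335 and 2260 normalized counts in cows 2, 3 and 4, and at 72 h it was 1641, 1539 and 1381. At 0 h it had stood at 1711, 1713 and 1672, and in each cow the 24 h library was above the 0 h and 72 h libraries. The log2 fold change from 24 to 72 h was -0.68 (SE 0.17, n = 3 cows, limma adjusted p = 0.0327). The call was lost with quantile normalization (log2 fold change -0.34, limma adjusted p = 0.317), with totals without the 20 top genes (0.0656) and with all 15 libraries (0.0938). It was also lost without the 72 h library of cow 4 (0.0984) and without any of the cows (0.165 to 0.290). With cow as a fixed term it was kept (0.0124), but not when that fit used the 6 libraries alone (0.0772). The most abundant gene that rose ranked 33rd. Its level went from 1164, 581 and 597 at 24 h to 2236, 2736 and 1112 at 72 h, after 1618, 2039 and 1436 at 0 h and only 307, 237 and 204 at 12 h. Its 24 h and 72 h libraries overlapped between animals, since cow 2 at 24 h was above cow 4 at 72 h, but every cow was higher at 72 h than at 24 h. The log2 fold change was 1.36 (SE 0.30, n = 3 cows, limma adjusted p = 0.0159), and the gene was lower at 12 h than the midpoint of 24 and 72 h (log2 difference -2.27, limma adjusted p = 7.45e-05). This gene thus had its low point at 12 h and was partway back at 24 h. Its rise from 24 to 72 h was not called without cow 2 (limma adjusted p = 0.0861) or without cow 3 (0.288).

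Summed over the 323 genes that fell, the level at 24 h was 54714, 47051 and 49295 normalized counts in cows 2, 3 and 4, and at 72 h it was 24689, 27281 and 24328. The same genes summed to 29650, 29304 and 31581 at 0 h and to 41315, 47857 and 44670 at 12 h. All 3 animals were therefore high at 12 and 24 h, while the order of 72 h and 0 h depended on the scaling. Summed over the 159 genes that rose, the level was 5174, 4072 and 4030 at 24 h and 9546, 11099 and 9115 at 72 h. These genes summed to 8054, 9113 and 7774 at 0 h and to 5024, 5046 and 4847 at 12 h, low at both 12 and 24 h in every cow and highest at 72 h. As a share of the library, the genes that fell made up 2.93%, 2.81% and 3.02% at 0 h, 4.79%, 4.93% and 4.54% at 24 h and between 2.57% and 3.11% at 72 h. By this share cow 2 was lower at 72 h than at 0 h and cows 3 and 4 were higher, whereas the normalized sums were lower at 72 h in all 3. Since the 24 h and 72 h libraries chose these genes, the difference between those sums is a description. The 0 h and 12 h levels did not enter that difference, but their spread entered the test that called the genes.

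**Figure D3:**
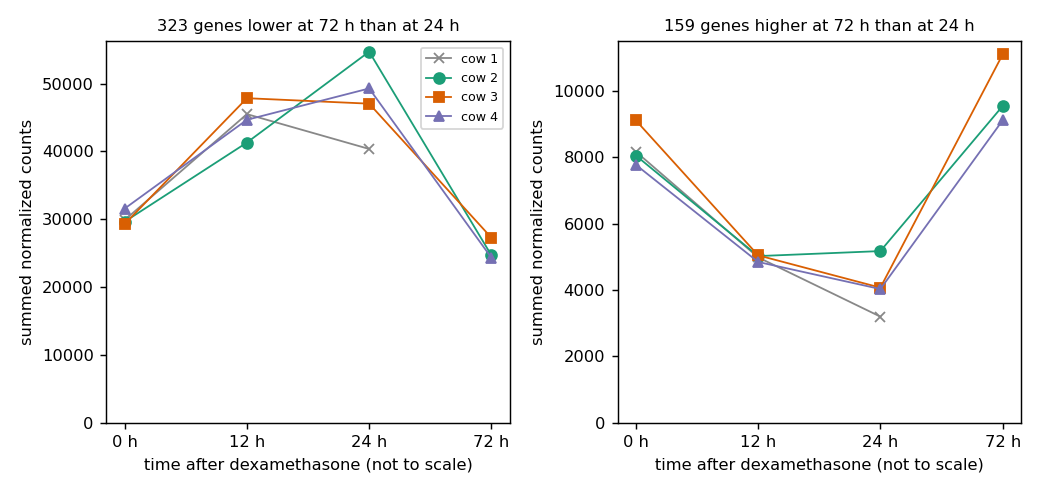
Summed normalized counts (vertical axes from 0) of the 323 genes that fell and the 159 genes that rose from 24 to 72 h, by time after DEX (not to scale), with 1 line per cow and cow 1 ending at 24 h. The left sums peak at 12 or 24 h at 45508 to 54714 and the right sums of cows 2 to 4 are lowest at 12 or 24 h, between 4030 and 5024.

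ENSBTAG00000009468, the largest fall among genes averaging at least 10 normalized counts, stood at 168, 187 and 331 normalized counts at 24 h in cows 2, 3 and 4 and at 2.85, 4.33 and 1.05 at 72 h. Before DEX it was at 8.78, 10.2 and 19.1, and at 12 h at 137, 446 and 328. The 24 h libraries were far above the 72 h libraries in every animal, and the 72 h libraries were also below each cow's own 0 h value. The mean was 229 ± 88.9 (SD, n = 3) at 24 h and 2.74 ± 1.65 at 72 h, an 83.4-fold difference, with a log2 fold change of -6.23 (SE 0.42, limma adjusted p = 2.74e-07). The level at 72 h rested on 7, 28 and 5 reads, and the pooled reads gave a 95% interval of 54.8-fold to 104.9-fold for counting error only. Between 72 h and 0 h the log2 difference was -2.09 with a limma adjusted p of 0.494, so it did not pass the test.

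ENSBTAG00000009870, the next largest fall in the main fit, was absent or nearly absent at both ends of the time course. It did not rank second in limma-voom, with 2 rather than 0.5 added to each normalized count, or without the 72 h library of cow 4. It was at 0, 0.30 and 0 normalized counts at 0 h, at 35.2, 224 and 95.6 at 12 h, at 11.01, 24.3 and 18.6 at 24 h and at 0.41, 0.46 and 0.42 at 72 h. In each cow the level was highest at 12 h, lower at 24 h and close to nothing at 72 h. The gene averaged at least 10 only through its 12 h libraries, so a high 12 h level was partly fixed by the choice. The reads behind the last step were 60, 114 and 69 at 24 h and 1, 3 and 2 at 72 h, a pooled ratio of 40.1 with an exact 95% interval of 18.1 to 110.2 for counting error only. The log2 fold change was -4.24 (SE 0.48, n = 3 cows, limma adjusted p = 8.51e-05). Both of these genes were called under all 17 alternative settings.

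By the mean of log2 values, the largest rise among genes averaging at least 10 normalized counts was that of ENSBTAG00000012244, from 141, 90.8 and 59.6 at 24 h to 490, 529 and 375 at 72 h. It had stood at 404, 481 and 301 at 0 h and at 277, 159 and 168 at 12 h. All 3 cows went down stepwise to 24 h and were back above their 0 h value at 72 h, and the 24 h and 72 h libraries did not overlap. The mean was 97.2 ± 41.2 (SD, n = 3) at 24 h and 464 ± 80.1 at 72 h, which is 4.78-fold higher (log2 fold change 2.32, SE 0.27, limma adjusted p = 8.74e-05). The difference between 72 h and 0 h was 0.24 with a limma adjusted p of 0.871. This gene was called under all 17 alternative settings, with a highest adjusted p of 0.00945.

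ENSBTAG00000011839, the next rise by log2 values and the largest of the 12 by the ratio of group means (6.29-fold), followed a different course and rested on fewer animals. limma-voom, edgeR, DESeq2, quantile normalization, the fit of all 15 libraries and the fit without cow 2 placed it above ENSBTAG00000012244. ENSBTAG00000001592 was also above ENSBTAG00000012244 in limma-voom, without cow 2 and with all 15 libraries. In that last fit it was the highest of the 3 (log2 fold change 2.83). The level of ENSBTAG00000011839 was 71.0, 41.1 and 33.7 at 24 h in cows 2, 3 and 4 and 75.4, 308 and 535 at 72 h, after 46.7, 107 and 52.1 at 0 h and 67.0, 80.2 and 70.5 at 12 h. Cow 2 was nearly level, with a log2 ratio of 0.086, whereas cows 3 and 4 went up by 2.89 and 3.97. At 72 h all 3 cows were above their own level at 0, 12 and 24 h, cow 2 by far less than cows 3 and 4. The mean was 48.6 ± 19.7 (SD, n = 3) at 24 h and 306 ± 230 at 72 h (log2 fold change 2.31, SE 0.49, limma adjusted p = 0.0113), and the difference of 1.85 between 72 h and 0 h had a limma adjusted p of 0.532. The call was lost without cow 3 (limma adjusted p = 0.163), without cow 4 (0.278) and without the 72 h library of cow 4 alone (0.0513).

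**Figure D4:**
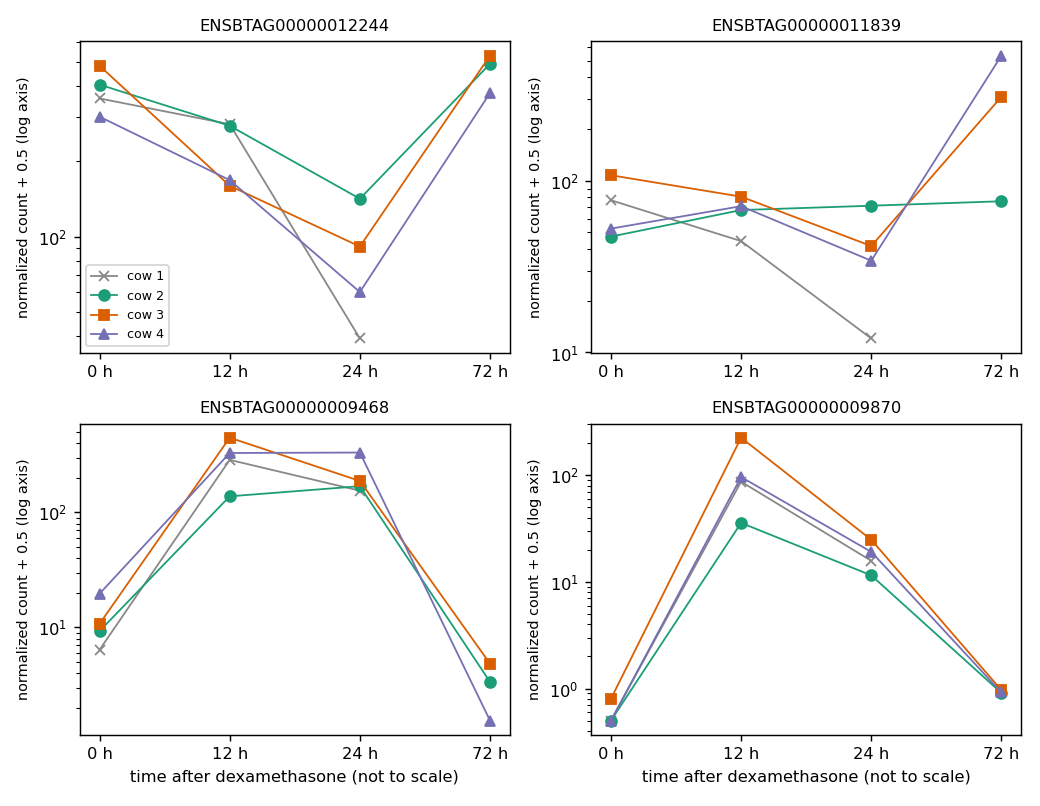
Normalized count + 0.5 (log axes) at 0, 12, 24 and 72 h after DEX (time not to scale) of the 2 largest rises, in the upper panels, and the 2 largest falls, in the lower panels, among genes averaging at least 10, with 1 line per cow. ENSBTAG00000009468 and ENSBTAG00000009870 peak at 12 or 24 h and return to 4.33 or less at 72 h. For ENSBTAG00000011839, cow 2 is nearly level from 12 h on (67.0, 71.0 and 75.4 normalized counts at 12, 24 and 72 h).

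The 12 largest falls covered 7.66-fold to 83.4-fold differences, with limma adjusted p from 2.74e-07 to 9.30e-04, and 10 of them were called under every alternative setting. All 12 had their 0 h mean on the 72 h side of the midpoint between 24 and 72 h, and 11 had their 12 h mean on the 24 h side. Over all genes averaging at least 10 these shares were 64.3% and 55.2%, and 2.14% of all genes tested passed the 12 h test in either direction. For 3 of the 12, ENSBTAG00000009870 among them, a high 12 h level was partly fixed by the choice, since they averaged at least 10 only through their 12 h libraries. Of the other 9, 8 had 12 h on the 24 h side, 7 of these past the test. The exception was a gene that was low at 12 h (14.1, 15.6 and 16.4), high at 24 h (76.1, 39.4 and 72.0) and low again at 72 h (12.2, 5.57 and 6.69) in cows 2, 3 and 4. The 12 largest rises covered 2.93-fold to 6.29-fold differences, with limma adjusted p from 8.74e-05 to 0.0212, and 4 of them were called under every alternative setting. Of these 12, 6 had 0 h on the 72 h side, against 64.3% of all genes averaging at least 10. A mean log2 level at 72 h above that at 0 h was found in 11, but a high 72 h level was partly fixed by the choice of genes. None of the 12 passed the test between 72 h and 0 h, with 0.494 as the lowest limma adjusted p. The 72 h value of cow 4 was over 2 times that of either other cow in 2 of the rises and also in 2 of the falls.

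The comparison with 0 h asked whether genes that moved between 24 and 72 h moved towards their level before DEX. For each gene the 0 h mean was set against the midpoint of the 24 h and 72 h means, a contrast whose sign is not fixed by choosing genes on the difference between 24 and 72 h. Of the 482 changed genes, 403 (83.6%) had 0 h on the 72 h side, against 56.1% of all genes tested. Only 12733 genes had a read at 24 or 72 h, so the share over all genes includes genes that have no side. Among genes averaging at least 10 the shares were 86.7% of 361 changed genes and 64.3% of all. The genes that rose were on the 72 h side in 123 of 159 cases (77.4%) and the genes that fell in 280 of 323 (86.7%). On a scale where the 24 h level is 0 and the 72 h level is 1, the 0 h level had a median position of 0.819 for the rises (quartiles 0.535 and 0.977) and 0.778 for the falls (quartiles 0.588 and 0.982). In 30 of the rises and 69 of the falls, 0 h lay beyond the 72 h level.

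Gene by gene, few of these positions passed a test. Over all genes, 17 (0.126%) differed between 0 h and the midpoint in limma. Of the 482 changed genes, 13 did, all with 0 h on the 72 h side, and they comprised 5 rises and 8 falls. On the 24 h side limma called 0, edgeR 0 and DESeq2 1. At an unadjusted p under 0.05 there were 51 rises and 135 falls on the 72 h side and 6 rises and 2 falls on the 24 h side. When cow was fitted as a fixed effect the 13 became 48, and without cow 3 there were 0. One of the 8 falls ranked 174th in abundance and was at 52.2, 42.1 and 38.8 normalized counts at 0 h in cows 2, 3 and 4, at 338, 474 and 396 at 12 h, at 232, 329 and 249 at 24 h and at 46.1, 35.1 and 41.4 at 72 h. Its 72 h and 0 h libraries overlapped and were all far below the 12 h and 24 h libraries (log2 fold change from 24 to 72 h of -2.70, SE 0.18, limma adjusted p = 2.74e-07). One of the 5 rises ranked 936th and went from 73.5, 64.4 and 66.6 at 0 h to 11.7, 17.1 and 20.5 at 24 h and to 38.7, 33.0 and 45.8 at 72 h. In every cow this gene was at 72 h still below its 0 h level and above its 24 h level, with a log2 fold change of 1.25 (SE 0.22, limma adjusted p = 0.00284) that was not called without cow 2 (0.108).

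**Figure D5:**
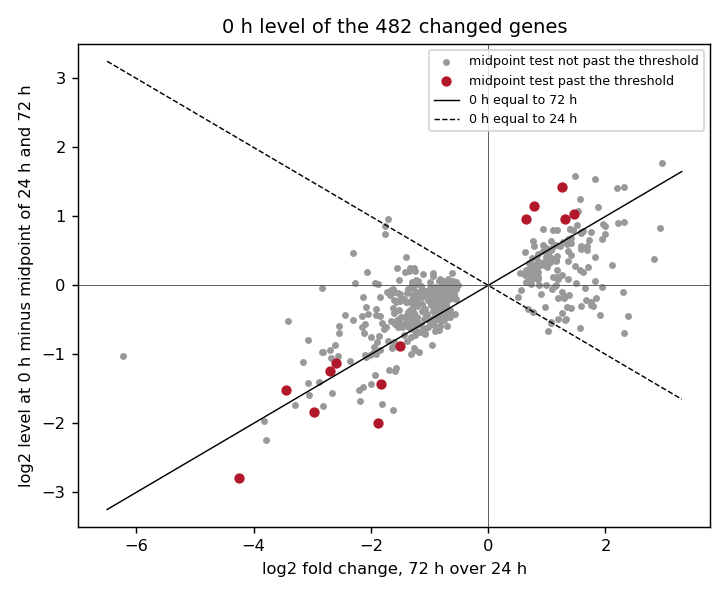
Log2 level at 0 h minus the midpoint of 24 and 72 h (vertical axis) against the log2 fold change from 24 to 72 h (horizontal axis) for the 482 changed genes, with lines where 0 h equals the 72 h level (solid) or the 24 h level (dashed). Most points, 403 of 482, lie on the same side of the midpoint as 72 h, and the 13 genes past the test, in red, all lie on that side.

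The 12 h libraries were set against the same midpoint. Of the 323 falls, 251 (77.7%) had their 12 h mean on the 24 h side of the midpoint, and of the 159 rises 88 (55.3%), against 51.8% of all genes tested. The share over all genes again includes genes without a read at 24 or 72 h. Among genes averaging at least 10 (over libraries that include 12 h) the shares were 71.5% of the changed genes and 55.2% of all. In limma 289 of all genes (2.14%) differed between 12 h and the midpoint. Among the changed genes 77 falls and 19 rises did so with 12 h on the 24 h side, and 2 falls and 4 rises with 12 h on the 72 h side. In those 6 genes the 12 h mean lay beyond the 72 h level, and the tests of their differences between 12 h and 0 h are not reported here. One of the 4 such rises ranked 449th and was at 62.1, 72.8 and 78.7 at 0 h, at 99.1, 135 and 108 at 12 h, at 43.8, 51.6 and 41.0 at 24 h and at 81.9, 84.3 and 66.7 at 72 h in cows 2, 3 and 4. Each cow had its highest value at 12 h and its lowest at 24 h, and the 0 h and 72 h libraries overlapped between them. Its rise from 24 to 72 h (0.76 on the log2 scale, limma adjusted p = 0.0125) was not called with any cow left out (0.0836 to 0.178). In 94 of the falls and 38 of the rises 12 h lay beyond the 24 h level, away from 72 h.

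Cow 1 gave a check on the 24 h side that had no part in the main fit. Of the 482 genes, 424 (88.0%) were displaced from 0 h to 24 h in cow 1 in the direction opposite to their later change in cows 2 to 4, against 48.2% of all genes tested. Genes with equal values at both times in cow 1, such as those without a read, count as not displaced, which lowers the share over all genes. Such ties were found in 4 of the rises and 1 of the falls. Among genes averaging at least 10 the shares were 89.2% and 65.9%. The genes that rose were lower at 24 h than at 0 h in cow 1 in 138 of 159 cases, with a median log2 ratio of -1.08, and the genes that fell were higher in 286 of 323, with a median of 0.69. The scaling factor of this animal went from 1.255 at 0 h to 0.808 at 24 h, and the sizes of its changes depended on it. The sum of the rises went from 8171 to 3198 normalized counts, or from 0.651% to 0.396% of the library, and the sum of the falls from 29886 to 40372, or from 2.38% to 4.99%. In reads corrected for library size alone, a scale chosen after seeing the data, 119 of the rises and 316 of the falls moved in these directions (90.2% of the 482, against 47.3% of all genes tested), with median log2 ratios of -0.48 and 1.26. Cow 1 is a single animal, taken as the one that left the study, and no test was made of these shares.

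The study prints 2 identifiers without a gene name, whose values were known before they were looked up here. ENSBTAG00000047136, which the study places under translation, was at 320, 247 and 239 normalized counts at 24 h in cows 2, 3 and 4 and at 185, 184 and 187 at 72 h, after 181, 163 and 196 at 0 h. The 24 h libraries were above the 72 h libraries in all 3 animals and the 72 h values were nearly alike, but the log2 fold change of -0.52 (SE 0.14) had a limma adjusted p of 0.0510 and did not pass the threshold. It passed under 6 of the 17 alternative settings. With cow as a fixed term it passed (limma adjusted p = 0.0318), but not when that fit used the 6 libraries alone (0.0957). Its log2 fold change was -0.17 with quantile normalization and -0.34 with totals without the 20 most abundant genes. ENSBTAG00000047609 was at 123, 90.8 and 40.2 at 24 h and at 128, 185 and 44.1 at 72 h, with wide overlap between the time points, and passed under none of them (log2 fold change 0.41, SE 0.52, limma adjusted p = 0.769).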

How the data were processed

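The authors trimmed the 3′ tag reads, aligned them with STAR (version 2.6.0c in the submitters' processing notes) to UMD3.1, counted them by gene and deposited a normalized count, a signal in which reads are corrected for library size and a library factor. Values were whole multiples of 1 read in 100% of cases (tolerance 0.01 reads), so reads were recovered for the count tests. All columns were assigned to a cow and time point from the labels.

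limma (version 3.58.1, R 4.3.3; lmFit, eBayes with a trend) was fitted to the 12 libraries of cows 2 to 4 as log2(normalized count + 0.5). The model held time point as a factor and the within-cow correlation that duplicateCorrelation estimated (0.0179), with Benjamini-Hochberg adjustment over 13525 genes (threshold 0.05). Fold changes are on that scale and understate changes of low genes. The same animals pair the time points, and their 24 h and 72 h deviations from the time point means correlated at 0.260, 0.209 and 0.300. The design had assumed gene symbols. Since 0 of 24616 identifiers matched the symbols of an ARS-UCD2.0 table, symbol lists, cell type markers, the tissue check and sequences were not analysed here, and the rule for named genes gave the 2 largest rises and 2 largest falls averaging at least 10 in a like direction in all 3 cows. Genes described by rank without an identifier were chosen after their values were seen. The comparison and its gene lists were chosen with earlier results of these data known. Another 16 settings were tried, among them DESeq2 (version 1.42.0) and edgeR (version 4.0.16) on recovered reads, and 1 more, without the 72 h library of cow 4, was chosen after seeing the data.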

Additional observations from a re-analysis of the deposited data

Results flagged for a closer look

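At each of the 0, 12 and 24 h time points the 4 libraries, cow 1 included, were examined for a value far from the other three, and 3 of 36 such groups had one, where chance gives about 1 in 20 groups (1.8 of 36). At 0 h the scaling factor of cow 1 was 1.255 against 1.0107 to 1.0443 in the other cows, a gap of 0.862 of the whole range. At 0 h the 20 most abundant genes took 84.55% of the library of cow 1 against 81.83% to 82.17% in the others, a gap of 0.875 of the range. For ENSBTAG00000009870 at 0 h the value of 0.30 normalized counts in cow 3, which is 1 read, stood against 0 in the others, a gap of 1 times the range. Where the others are at 0, any read gives this gap, so the rate given for chance does not apply to this group. Cow 1 took no part in the main fit, and with 3 libraries a 72 h group is too small to be examined this way.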

How the results depend on the processing

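The libraries of one cow come from the same animal, so the effect of the pairing was examined. With no replicate block 459 genes changed from 24 to 72 h, with cow as a fixed term 653, of which 481 were among the 482, and 707 when that fit used the 6 libraries alone. edgeR, also with cow as a fixed term, gave 886 genes, 382 rises and 504 falls (43.1% rises), of which 453 were among the 482. Leaving out a cow at a time gave between 103 and 176 genes, the fewest without cow 2. The other settings gave between 360 and 669 genes, the fewest without the 72 h library of cow 4, and no setting turned the sign of any of the 482 genes that it tested. The 13 changed genes whose 0 h level passed the midpoint test became 48 with cow as a fixed term, 28 among genes averaging 10 or more, 49 with edgeR and 73 with DESeq2, both of which also had cow as a fixed term, and between 0 and 5 with a cow left out, where 2 cows remain in each group. The share of changed genes with 0 h on the 72 h side, 83.61%, was 79.83% with all 15 libraries, 79.35% with edgeR and between 82.95% and 96.3% with a cow left out. The fit of the 6 libraries holds no 0 h library and gives no such value. Of the values of the 12 largest rises, the 12 largest falls and the 2 identifiers that the study prints, 16 lost and 6 gained a call and 0 changed sign. Genes described by rank lost further calls, which are given with those genes. The cause of these shifts was not tested. Depth limits the lowest genes most, since 3 reads equal up to 1.22 normalized counts at 72 h.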
